A study of Mus musculus with 3 samples.

Results

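The genes of MHC class II antigen presentation were followed in RNA from mouse brain vessels. They were chosen by name, with earlier results of these data known: the class II chains H2-Aa, H2-Ab1 and H2-Eb1, the invariant chain Cd74, the peptide editor H2-DMa and H2-DMb1, the protease Ctss, the transactivator Ciita, and Cd40, a co-stimulatory receptor of cells that present antigen. All 9 were found among the 29787 genes matched in the tables, and all 9 are among the 16594 genes with a level of at least 1 CPM in a library, where CPM is counts per 1000000 normalised library reads. The first library was labelled hGFAP-Cre/Cx43fl/fl, genotype Cx43 -/-, on a C57BL6-BALB/c background: the gene of connexin 43 (Gja1) is deleted where the human GFAP promoter drives Cre, which is meant for astroglia. The second was wild type (WT) of the same labelled background, C57BL6-BALB/c, and the third was WT of the C57BL6 strain. The mice were 3 months old, and each group had 1 library. The sources used here do not say whether a library came from 1 animal or a pool, or whether the WT mice carried the floxed allele or the transgene.

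MHC class II molecules are pairs of an alpha and a beta chain that display peptides from the endolysosome to CD4+ T cells. The invariant chain holds new pairs together and blocks their groove, cathepsin S trims it away, and the H2-DM pair exchanges the remaining fragment for a peptide. Ciita switches on the chains, the invariant chain and H2-DM together, by joining factors bound to a shared set of promoter boxes. In the brain, class II transcripts are mainly a property of macrophages at the vessels and borders, of dendritic cells and B cells, and of activated microglia, while Cd40 is made by macrophages and microglia and also by endothelium. Setting the Cx43-deleted library beside WT asks whether vessels without astroglial connexin 43 carry more of the transcripts by which cells address T cells.

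The library totals were 54975610 reads for Cx43-deleted, 21170766 for C57BL6-BALB/c WT and 24830975 for C57BL6 WT. Gja1 was at 48.0 CPM in the Cx43-deleted library, against 202 in C57BL6-BALB/c WT and 202 in C57BL6 WT, and was 4.20-fold lower than in C57BL6-BALB/c WT (4.001 to 4.41) and 4.21-fold lower than in C57BL6 WT (4.02 to 4.42). With 1 library per group there is no replicate and no test, and each difference is one between libraries. Levels of different genes are compared as RPKM, reads per kilobase of transcript with the same scaling as CPM. A fold is the ratio of normalised reads on the most abundant transcript of a gene, with an exact binomial 95% interval in brackets. These intervals and the floor of 3 reads cover counting error only. The library is bulk RNA, in which fewer cells of a type and less RNA per cell cannot be told apart.

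A class II gene next to the members separated the libraries that share a labelled background. H2-Ea-ps is the reference annotation's name for the class II alpha chain gene that pairs with H2-Eb1 (ENSMUSG00000036322; GRCm38 chromosome 17, 34341959 to 34344645, minus strand). As background, C57BL6 mice carry a null allele of it and BALB/c mice a functional one, so that of these strains BALB/c alone makes the complete H2-E molecule. It had 0 reads in the Cx43-deleted library, against 115 reads in C57BL6-BALB/c WT, and 0 reads in C57BL6 WT. In C57BL6-BALB/c WT it was at 5.42 CPM, and reads covered all but 5 of its 686 transcript bases. A count of 0 allows up to 0.0559 CPM in the Cx43-deleted library and 0.118 in C57BL6 WT. The Cx43-deleted library was thus at least 97.0-fold lower than C57BL6-BALB/c WT, and C57BL6-BALB/c WT at least 45.9-fold higher than C57BL6 WT. At this gene the Cx43-deleted library, like C57BL6 WT, had no read, although its label gives it the background of C57BL6-BALB/c WT. For H2-Aa, H2-Ab1, H2-Eb1, H2-DMa and H2-DMb1, which lie in the same H2 region, a difference between the Cx43-deleted library and C57BL6-BALB/c WT and a difference in H2 haplotype cannot be told apart. For Cd74, Ctss, Ciita and Cd40, on other chromosomes, the parental alleles are not known, so deletion and background cannot be told apart either. Against C57BL6 WT, the deletion and the labelled strain change together for every gene. Alleles of the chain genes also differ in sequence, and the sources used here do not say how reads with mismatches to the reference were treated.

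**Figure D1:**
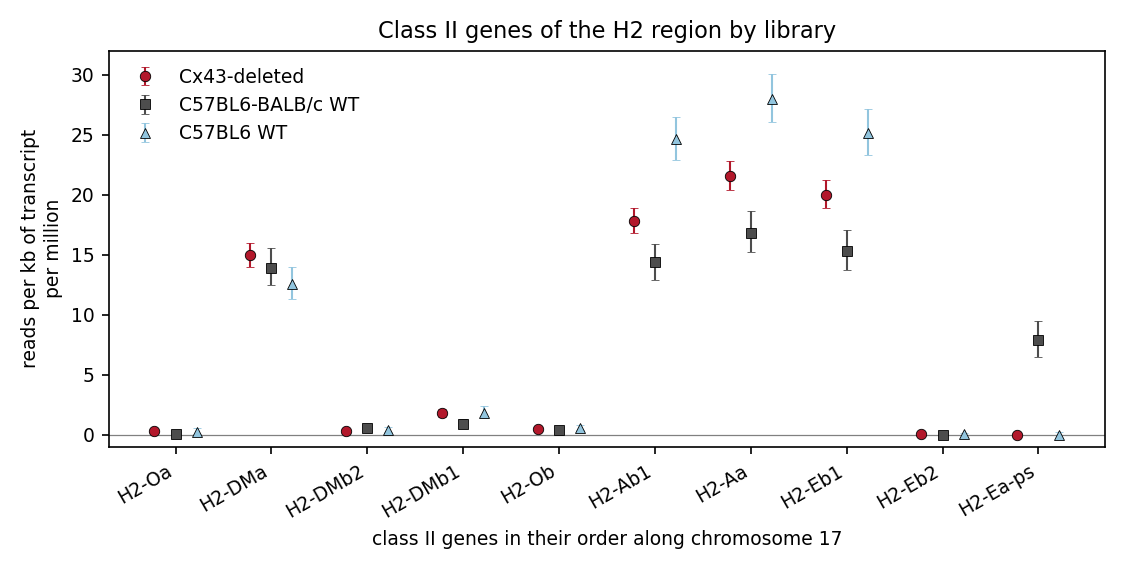
RPKM of the 10 class II genes of the H2 region that were measured, in their order along chromosome 17, with 95% Poisson counting intervals, 1 point per library. H2-Ea-ps is at 7.91 in C57BL6-BALB/c WT and at 0 in the other libraries, while H2-Ab1, H2-Aa and H2-Eb1 are highest in C57BL6 WT and lowest in C57BL6-BALB/c WT.

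The chain genes were ordered alike in the 3 libraries, lowest in C57BL6-BALB/c WT and highest in C57BL6 WT, with the Cx43-deleted library between them. Their promoters in the reference genome, which is of C57BL6, are shown because these genes varied together and class II chain genes are the textbook case of shared promoter boxes. The RefSeq windows (GRCm38.p6) run from 250 bases before to 50 after a gene's start, and 5 of the 9 members matched one (H2-Aa, H2-Eb1, H2-DMa, H2-DMb1 and Ctss); H2-Ab1, Cd74, Ciita and Cd40 did not. The 200 bases before the start of H2-Aa are at chr17:34287824-34288023, minus strand, and those of H2-Eb1 at chr17:34305667-34305866, plus strand. Capitals mark the motifs searched on both strands: the Y box CTGATTGG, its core ATTGG, which overlaps it, or the reverse CCAAT, and the X box GCAACNG.
H2-Aa: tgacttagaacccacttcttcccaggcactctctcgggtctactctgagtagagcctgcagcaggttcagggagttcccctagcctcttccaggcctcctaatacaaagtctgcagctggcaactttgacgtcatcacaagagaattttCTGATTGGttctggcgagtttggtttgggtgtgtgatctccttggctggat
H2-Eb1: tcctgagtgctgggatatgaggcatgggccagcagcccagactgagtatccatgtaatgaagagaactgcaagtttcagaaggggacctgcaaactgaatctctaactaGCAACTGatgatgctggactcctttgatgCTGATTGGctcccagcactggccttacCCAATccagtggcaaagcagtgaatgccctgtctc

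The Y box ended 44 bases before the start of H2-Aa and 55 bases before that of H2-Eb1. It is present in 4.10% of all 32851 promoter windows, and its core in 37.4%. The X box letters GCAACNG were found only in H2-Eb1 among the matched members, ending 85 bases before the start. They are present in 12.7% of windows. Only these exact letters were searched, so an X box that departs from them would be missed, and its absence from the other members is not shown. H2-DMb1 held the core 57 bases before its start, and H2-DMa held it in 1 of its windows, 194 bases before that RefSeq start. The H2-DMa windows lie inside the annotated span of the gene, and whether the counted transcript starts there was not tested. The window of Ctss held neither the core nor the X box letters. The interferon-related letters TTCNNNGAA, present in 8.30% of windows, were in no member window. A match is a description of letters, not a measured binding site.

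H2-Aa, the alpha chain of H2-A (ENSMUSG00000036594; chromosome 17, 34282744 to 34287823), had 1267 reads in the Cx43-deleted library, 391 in C57BL6-BALB/c WT and 778 in C57BL6 WT, which is 23.6 CPM in Cx43-deleted, 18.4 in C57BL6-BALB/c WT and 30.6 in C57BL6 WT. It was 1.28-fold of C57BL6-BALB/c WT (1.14 to 1.44) and 0.771-fold of C57BL6 WT (0.705 to 0.844). H2-Ab1, its beta chain partner (ENSMUSG00000073421; chromosome 17, 34257689 to 34269419), had 1120 reads in Cx43-deleted, 357 in C57BL6-BALB/c WT and 733 in C57BL6 WT, or 20.9 CPM in Cx43-deleted, 16.8 in C57BL6-BALB/c WT and 28.9 in C57BL6 WT. Its folds were 1.24 over C57BL6-BALB/c WT (1.10 to 1.40) and 0.724 over C57BL6 WT (0.659 to 0.795). So both chains of H2-A were higher in the Cx43-deleted library than in its background-labelled WT and lower than in C57BL6 WT, and no interval held 1.

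H2-Eb1, the beta chain of H2-E (ENSMUSG00000060586; chromosome 17, 34305867 to 34316674), had 1102 reads in the Cx43-deleted library, 334 in C57BL6-BALB/c WT and 656 in C57BL6 WT, or 20.5 CPM in Cx43-deleted, 15.8 in C57BL6-BALB/c WT and 25.8 in C57BL6 WT. It was 1.30-fold of C57BL6-BALB/c WT (1.15 to 1.48) and 0.796-fold of C57BL6 WT (0.722 to 0.878). The beta chain was thus read in all 3 libraries, with or without reads of its alpha chain partner H2-Ea-ps. In C57BL6-BALB/c WT, reads per length of H2-Ea-ps were 0.515 of those of H2-Eb1 (0.413 to 0.638).

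Within a library, ratios between genes do not depend on the scaling of that library. Per length, H2-Aa stood to H2-Ab1 as 1.21 in the Cx43-deleted library (1.12 to 1.32), 1.17 in C57BL6-BALB/c WT (1.01 to 1.36) and 1.14 in C57BL6 WT (1.03 to 1.26). H2-Eb1 stood to H2-Ab1 as 1.12 in the Cx43-deleted library (1.03 to 1.22), 1.07 in C57BL6-BALB/c WT (0.918 to 1.24) and 1.02 in C57BL6 WT (0.919 to 1.14). These intervals overlap across the libraries, so at this depth no difference in the proportions of the 3 chains was detectable. Bases without a read were few: of the 1094 of H2-Aa, 0 in Cx43-deleted, 15 in C57BL6-BALB/c WT and 1 in C57BL6 WT, of the 1172 of H2-Ab1, 25 in Cx43-deleted, 39 in C57BL6-BALB/c WT and 25 in C57BL6 WT, and of the 1026 of H2-Eb1, 16 in Cx43-deleted, 15 in C57BL6-BALB/c WT and 0 in C57BL6 WT.

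**Figure D2:**
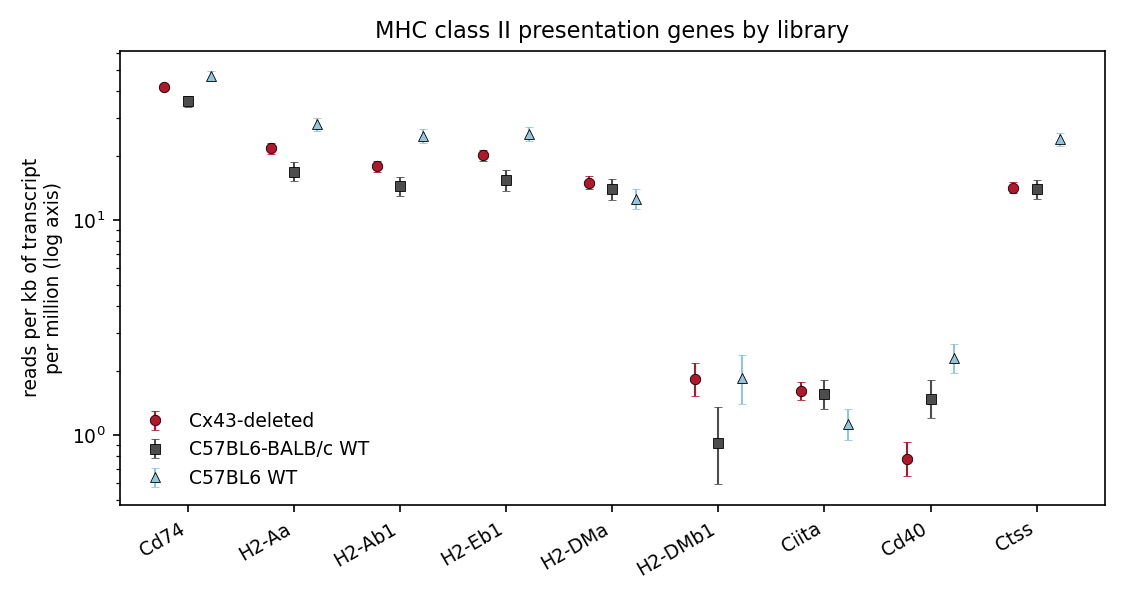
RPKM (log axis) of the most abundant transcript of each member, with 95% Poisson counting intervals, 1 point per library. Cd74 is the highest in every library, the chains, H2-DMa and Ctss lie between 12.6 and 28.0, and H2-DMb1, Ciita and Cd40 lie between 0.780 and 2.28.

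Cd74, the invariant chain (ENSMUSG00000024610, on chromosome 18 and so unlinked to the H2 region), had the same order. It had 3146 reads in the Cx43-deleted library, 1067 in C57BL6-BALB/c WT and 1682 in C57BL6 WT. Summed over its 2 transcripts, which share most reads, its level was 114 CPM in Cx43-deleted, 98.4 in C57BL6-BALB/c WT and 129 in C57BL6 WT. It was 1.17-fold of C57BL6-BALB/c WT (1.09 to 1.25) and 0.886-fold of C57BL6 WT (0.835 to 0.940). Its distances were smaller than those of the chains. Per length, Cd74 stood to H2-Aa as 1.93 in the Cx43-deleted library (1.804 to 2.06), 2.12 in C57BL6-BALB/c WT (1.88 to 2.38) and 1.68 in C57BL6 WT (1.54 to 1.83). The first interval overlaps both of the others, but the intervals of the WT libraries do not overlap each other.

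The H2-DM genes, whose products form the peptide editor, differed from each other. H2-DMa (ENSMUSG00000037649; chromosome 17, 34119541 to 34139101) had 858 reads in the Cx43-deleted library, 316 in C57BL6-BALB/c WT and 342 in C57BL6 WT, or 16.0 CPM in Cx43-deleted, 14.9 in C57BL6-BALB/c WT and 13.5 in C57BL6 WT. It was the flattest member, with its highest level 1.19-fold of its lowest, and the highest was in the Cx43-deleted library. Its fold was 1.07 over C57BL6-BALB/c WT (0.942 to 1.23) and 1.19 over C57BL6 WT (1.05 to 1.35), so only the second interval leaves out 1. Of the exon bases annotated for H2-DMa, 10.4% overlap those of Brd2, and reads there cannot be assigned to one gene.

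H2-DMb1 (ENSMUSG00000079547; chromosome 17, 34153072 to 34160230) had 126 reads in the Cx43-deleted library, 25 in C57BL6-BALB/c WT and 60 in C57BL6 WT, or 2.35 CPM in Cx43-deleted, 1.18 in C57BL6-BALB/c WT and 2.36 in C57BL6 WT. It was 1.99-fold of C57BL6-BALB/c WT (1.29 to 3.20) and 0.995-fold of C57BL6 WT (0.726 to 1.38), so the low library was C57BL6-BALB/c WT. On the log2 scale with the pseudocount of 0.5 CPM the first difference was 0.76. Its values are uncertain because of a near-identical copy, H2-DMb2: of the 1355 windows of 50 bases in the annotated H2-DMb1 transcript, 369 (27.2%) occur unaltered in that of H2-DMb2. Of its 1284 bases, 569 were without a read in the Cx43-deleted library, 791 in C57BL6-BALB/c WT and 723 in C57BL6 WT. H2-DMb2 itself had 25 reads in Cx43-deleted, 16 in C57BL6-BALB/c WT and 13 in C57BL6 WT. Per length H2-DMb1 was 0.122 of H2-DMa in the Cx43-deleted library (0.101 to 0.148), 0.0659 in C57BL6-BALB/c WT (0.0420 to 0.0991) and 0.146 in C57BL6 WT (0.109 to 0.193).

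Ctss, cathepsin S, the protease that trims the invariant chain (ENSMUSG00000038642; chromosome 3, 95526786 to 95556403), had 1031 reads in the Cx43-deleted library, 401 in C57BL6-BALB/c WT and 821 in C57BL6 WT. Its level summed over 2 transcripts was 38.4 CPM in Cx43-deleted, 37.8 in C57BL6-BALB/c WT and 64.6 in C57BL6 WT. It was 1.02-fold of C57BL6-BALB/c WT (0.905 to 1.14) and 0.595-fold of C57BL6 WT (0.542 to 0.653). The libraries labelled with the mixed background did not differ beyond counting error, and C57BL6 WT stood above both. Scaled by library total alone, the log2 ratio to C57BL6-BALB/c WT was −0.01 in place of 0.02.

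Ciita, the transactivator (ENSMUSG00000022504; chromosome 16, 10480059 to 10528418), shared the order of H2-DMa but not that of the chains, Cd74 and H2-DMb1, all of which it is known to switch on. It had 445 reads in the Cx43-deleted library, 170 in C57BL6-BALB/c WT and 148 in C57BL6 WT, or 8.30 CPM in Cx43-deleted, 8.02 in C57BL6-BALB/c WT and 5.83 in C57BL6 WT. Its fold was 1.03 over C57BL6-BALB/c WT (0.865 to 1.24) and 1.42 over C57BL6 WT (1.18 to 1.73). C57BL6 WT thus had the lowest level of Ciita and the highest of the chains and Cd74. Per length, Ciita stood to Cd74 as 0.0387 in the Cx43-deleted library (0.0350 to 0.0428), 0.0436 in C57BL6-BALB/c WT (0.0369 to 0.0513) and 0.0241 in C57BL6 WT (0.0202 to 0.0285). Of the 5153 bases of the Ciita transcript, 1189 in Cx43-deleted, 2620 in C57BL6-BALB/c WT and 2196 in C57BL6 WT had no read, so its coverage was patchy, and transcripts from its different promoters were not told apart. The neighbouring gene Dexi overlaps 3.45% of its exon bases.

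Cd40, the receptor for CD40 ligand of T cells (ENSMUSG00000017652; chromosome 2, 165055627 to 165072948), lay further below both WT libraries than any other member lay outside them. Its most abundant transcript had 125 reads in the Cx43-deleted library, 94 in C57BL6-BALB/c WT and 173 in C57BL6 WT, and its level summed over 6 transcripts was 6.49 CPM in Cx43-deleted, 11.8 in C57BL6-BALB/c WT and 17.5 in C57BL6 WT. It was 0.526-fold of C57BL6-BALB/c WT (0.399 to 0.694) and 0.342-fold of C57BL6 WT (0.270 to 0.433), with log2 ratios of −0.81 and −1.37. All 6 Cd40 transcripts were lower in the Cx43-deleted library, at 0.494-fold to 0.692-fold of C57BL6-BALB/c WT and 0.342-fold to 0.490-fold of C57BL6 WT, though they share reads. The Cd40 transcripts of 668 bases or fewer had only 9 to 28 reads in C57BL6-BALB/c WT. Their intervals over that library held 1. The WT libraries also differed, by 0.651-fold for C57BL6-BALB/c WT over C57BL6 WT (0.501 to 0.842). Per length, Cd40 stood to Cd74 as 0.0188 in the Cx43-deleted library (0.0156 to 0.0224), 0.0416 in C57BL6-BALB/c WT (0.0333 to 0.0514) and 0.0486 in C57BL6 WT (0.0413 to 0.0568). Of the 2986 bases of this transcript, 1427 in Cx43-deleted, 1534 in C57BL6-BALB/c WT and 1139 in C57BL6 WT had no read.

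**Figure D3:**
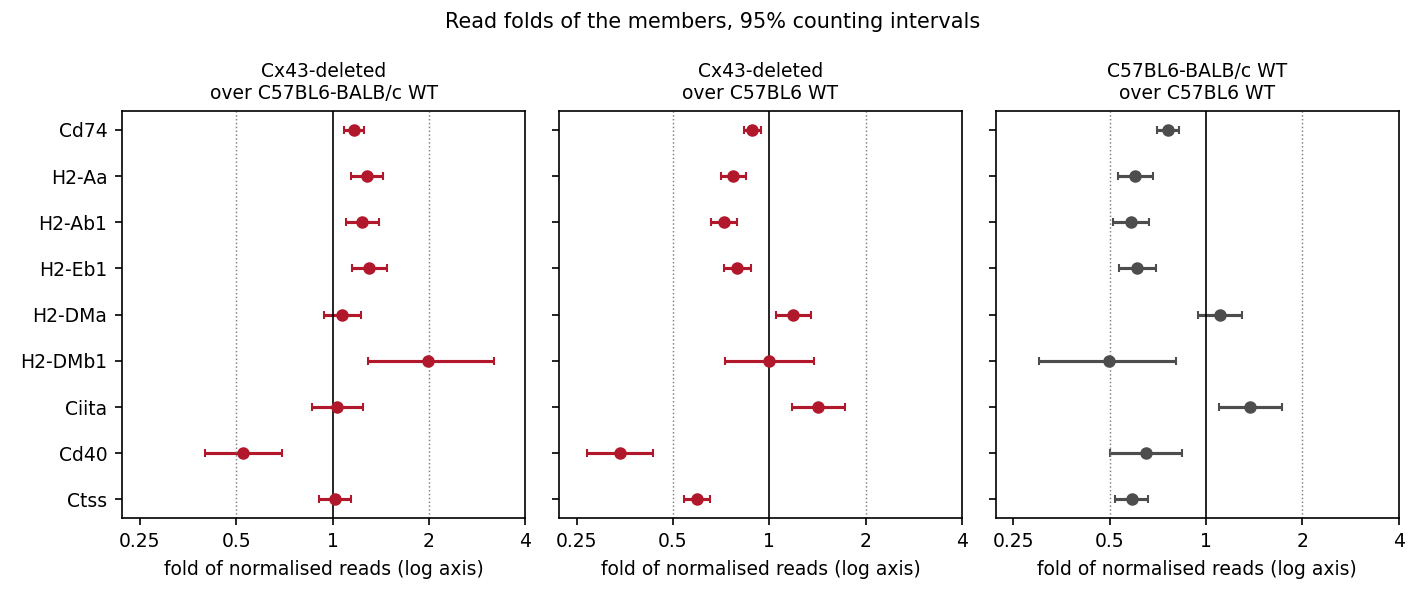
Fold of normalised reads (log axis) of each member, with exact binomial 95% counting intervals: Cx43-deleted over C57BL6-BALB/c WT on the left, Cx43-deleted over C57BL6 WT in the middle, and C57BL6-BALB/c WT over C57BL6 WT on the right. The solid line marks 1 and the dotted lines 2-fold. Cd40 lies below 1 in every panel, and Cd74 and the chains lie above 1 on the left and below 1 in the others.

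Counted over the members, 8 of 9 were higher in the Cx43-deleted library than in C57BL6-BALB/c WT and 1 was lower, where 50.5% of all genes tested were higher and 49.5% lower. The median log2 ratio was 0.21 against 0.0030 over all genes. By 2-fold or more on the log2 scale with the pseudocount of 0.5 CPM, which all these counts use, 0 of 9 were higher and 0 lower, where the shares of all genes were 1.05% and 1.01%. The counting interval lay above 1 for 5 members, below 1 for Cd40 alone, and held 1 for H2-DMa, Ciita and Ctss. The share of all genes with such intervals is not given here, so these interval counts do not set the members apart from other genes. Against C57BL6 WT, 7 of 9 were lower and 2 higher, where 52.9% of all genes were lower and 47.1% higher. The median was −0.32 against −0.03 over all genes. Cd40 alone was lower there by 2-fold or more, as were 2.92% of all genes, and 0 members were higher by 2-fold, as were 1.54%. The members do not all lie on one side: against the WT libraries jointly, 2 of 9 were above both (H2-DMa and Ciita, by log2 0.10 and 0.05 to the nearer one), where 33.2% of all genes were, and 1, Cd40, was below both, where 35.6% were. None lay 2-fold above both or below both, where the shares of all genes were 0.428% and 0.38%.

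Between the WT libraries the members' median lay further from 0 than between the Cx43-deleted library and either of them. The median of C57BL6-BALB/c WT over C57BL6 WT was −0.70, against −0.03 over all genes. Here 7 of 9 members were lower and 2 higher, where 53.2% of all genes were lower and 46.7% higher. On the log2 scale with the pseudocount, none of the 9 was lower by 2-fold or more, where 2.09% were. None was higher by 2-fold, where 1.18% were. H2-DMb1 came nearest to 2-fold lower, at −0.77 on that scale. Its read fold of C57BL6-BALB/c WT over C57BL6 WT, without the pseudocount, was 0.499 (0.300 to 0.808). C57BL6-BALB/c WT was the lowest library for 6 of 9 members, where it was the lowest for 26.8% of all genes. These comparisons share libraries, so they are not independent. By chromosome, the 5 members in the H2 region had a median of 0.35 over C57BL6-BALB/c WT and ranged from 0.10 to 0.76, while the 4 elsewhere had a median of 0.03 and ranged from −0.81 to 0.21. Against C57BL6 WT the medians were −0.32 for the H2 members and −0.46 for the others.

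The order of levels per length was stable at the top. Cd74 was first in every library, at 41.6 RPKM in Cx43-deleted, 35.7 in C57BL6-BALB/c WT and 47.0 in C57BL6 WT. H2-Aa, H2-Eb1 and H2-Ab1 followed in that order in each, and the intervals of neighbouring chains overlapped. H2-DMa and Ctss came next, at 15.0 and 14.2 in Cx43-deleted and at 13.9 and 14.0 in C57BL6-BALB/c WT, with overlapping intervals. In C57BL6 WT they parted, with H2-DMa at 12.6 (11.3 to 14.0) and Ctss at 23.8 (22.2 to 25.5). At the low end, Cd40 was last of the 9 in the Cx43-deleted library at 0.780, below Ciita at 1.61. In C57BL6 WT Cd40, at 2.28, was above Ciita, at 1.13. In C57BL6-BALB/c WT the intervals of Cd40 (1.20 to 1.82) and Ciita (1.33 to 1.81) overlapped.

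The other class II genes of the H2 region were sparse. H2-Ob, a chain of the inhibitor of H2-DM that B cells use, had 74 reads in Cx43-deleted, 21 in C57BL6-BALB/c WT and 41 in C57BL6 WT, and H2-Oa, its partner, had 16 in Cx43-deleted, 1 in C57BL6-BALB/c WT and 7 in C57BL6 WT. H2-Eb2 had 6 reads in Cx43-deleted, 0 in C57BL6-BALB/c WT and 2 in C57BL6 WT. Of these 3 genes, H2-DMb2 and H2-Ea-ps, which make 5, H2-Ob and H2-Ea-ps passed the minimum level. H2-Ob was at 1.38 CPM in Cx43-deleted, 0.990 in C57BL6-BALB/c WT and 1.61 in C57BL6 WT, in the same order of libraries as the chains. That order was not resolved beyond counting error. Its fold in Cx43-deleted was 1.39 over C57BL6-BALB/c WT (0.848 to 2.38) and 0.855 over C57BL6 WT (0.576 to 1.28). Between the WT libraries it was 0.614 for C57BL6-BALB/c WT over C57BL6 WT (0.344 to 1.06).

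Genes that act on class II promoters, or on the route from interferon gamma to Ciita, were all measured, 18 of 18. Of these, 4 lay above the WT libraries jointly and 10 below them, where 33.2% and 35.6% of all genes did. Their median log2 ratios were −0.04 over C57BL6-BALB/c WT and −0.20 over C57BL6 WT. The furthest outside both was Irf4, a factor of B cells and dendritic cells, at 4.92 CPM in Cx43-deleted, 2.92 in C57BL6-BALB/c WT and 2.52 in C57BL6 WT. Spi1, the myeloid factor PU.1, was at 2.37 CPM in Cx43-deleted, 3.73 in C57BL6-BALB/c WT and 4.72 in C57BL6 WT.

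Of 13 genes of endolysosomal antigen processing, 11 lay below both WT libraries, where 35.6% of all genes did, and none above. Their median log2 ratio was −0.14 over C57BL6-BALB/c WT and −0.63 over C57BL6 WT. Ctsh, cathepsin H, was furthest, at 162 CPM in Cx43-deleted, 276 in C57BL6-BALB/c WT and 431 in C57BL6 WT. Ctsl, cathepsin L, was at 83.8 in Cx43-deleted, 104 in C57BL6-BALB/c WT and 127 in C57BL6 WT, and Ctsb, cathepsin B, at 274 in Cx43-deleted, 313 in C57BL6-BALB/c WT and 462 in C57BL6 WT, with 26.8% and 12.8% of their exon bases shared with other genes. The 4 genes of class II turnover included Cd82, a tetraspanin, at 173 in Cx43-deleted, 231 in C57BL6-BALB/c WT and 302 in C57BL6 WT, and Cd83, which holds class II at the surface, at 13.7 in Cx43-deleted, 16.7 in C57BL6-BALB/c WT and 24.4 in C57BL6 WT. These 2 of the 4 lay below both WT libraries. The others, ubiquitin ligases of class II, lay between them: March1 was at 42.1 in Cx43-deleted, 53.2 in C57BL6-BALB/c WT and 33.3 in C57BL6 WT, with 7.64% of its exon bases shared with Gm15354. March8 was at 250.5 in Cx43-deleted, 251 in C57BL6-BALB/c WT and 243 in C57BL6 WT. The median of the 4 was −0.30 over C57BL6-BALB/c WT and −0.38 over C57BL6 WT.

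Of the 10 co-stimulatory and co-inhibitory ligands, 7 passed the minimum level, of which 4 lay below both WT libraries and 1 above. The shares of all genes were 35.6% below and 33.2% above. Cd274, the inhibitory ligand PD-L1, was at 11.5 CPM in Cx43-deleted, 18.2 in C57BL6-BALB/c WT and 42.0 in C57BL6 WT. Icosl was at 29.4 in Cx43-deleted, 36.2 in C57BL6-BALB/c WT and 39.3 in C57BL6 WT, and Cd86, which binds CD28 of T cells, at 3.75 in Cx43-deleted, 4.24 in C57BL6-BALB/c WT and 5.83 in C57BL6 WT. Of the 12 genes of Cd40 signalling, all measured, 2 lay above both WT libraries and 3 below, where 33.2% and 35.6% of all genes did. Their median was 0.0072 over C57BL6-BALB/c WT and −0.42 over C57BL6 WT. Those below were Tnfaip3, an inhibitor of NF-kB, at 24.3 in Cx43-deleted, 31.7 in C57BL6-BALB/c WT and 45.0 in C57BL6 WT, Traf5, a Cd40 adaptor, at 10.3 in Cx43-deleted, 12.1 in C57BL6-BALB/c WT and 12.5 in C57BL6 WT, and Nfkb2 at 24.6 in Cx43-deleted, 28.1 in C57BL6-BALB/c WT and 39.6 in C57BL6 WT. Among T cell partners of class II, 3 of 6 passed the minimum, while the T cell receptor complex genes Cd3e, Cd3d and Cd3g did not. The median of the 3 that passed was 0.33 over C57BL6-BALB/c WT, with 2 higher, where 50.5% of all genes were. Over C57BL6 WT it was −0.47, with all 3 lower, where 52.9% of all genes were. Cd4, the co-receptor that binds class II, was at 8.72 in Cx43-deleted, 6.13 in C57BL6-BALB/c WT and 11.7 in C57BL6 WT, and Lag3, an inhibitory receptor for class II, at 2.80 in Cx43-deleted, 2.12 in C57BL6-BALB/c WT and 4.05 in C57BL6 WT. Trac, the T cell receptor alpha constant gene, was below both WT libraries, at 0.541 in Cx43-deleted, 0.707 in C57BL6-BALB/c WT and 1.02 in C57BL6 WT.

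Markers of cells that could carry class II were set beside the members. Of 10 perivascular macrophage markers, 3 lay above both WT libraries and 2 below, where 33.2% and 35.6% of all genes did. Their median was 0.31 over C57BL6-BALB/c WT and −0.37 over C57BL6 WT, and −0.59 between the WT libraries. The members' medians for the same comparisons were 0.21, −0.32 and −0.70. The summed level of these markers was 239 CPM in Cx43-deleted, 204 in C57BL6-BALB/c WT and 277 in C57BL6 WT, the same order of libraries as Cd74. This order is not particular to them: the summed levels of the endothelial, choroid plexus, Cd40 signalling and T cell partner lists had it too. Most single endothelial markers did not: 8 of 10 lay below both WT libraries, while Slc2a1, a large part of the endothelial sum, lay above both. Among the macrophage markers, Mrc1, Ms4a7, Folr2, F13a1 and Stab1 each had the order of Cd74. Mrc1 was at 28.1 in Cx43-deleted, 22.2 in C57BL6-BALB/c WT and 38.3 in C57BL6 WT. The macrophage markers named next were picked for lying furthest outside both WT libraries, so they could not have that order. Cd163, a haemoglobin scavenger receptor, was at 32.4 in Cx43-deleted, 16.9 in C57BL6-BALB/c WT and 16.6 in C57BL6 WT, Siglec1 at 9.10 in Cx43-deleted, 4.67 in C57BL6-BALB/c WT and 6.18 in C57BL6 WT, and Cbr2 at 16.1 in Cx43-deleted, 22.4 in C57BL6-BALB/c WT and 21.1 in C57BL6 WT. Among 10 microglia markers, 6 lay below both WT libraries and none above, where 35.6% and 33.2% of all genes did. The medians for the same comparisons were −0.04, −0.52 and −0.41, and the summed levels 364 CPM in Cx43-deleted, 378 in C57BL6-BALB/c WT and 539 in C57BL6 WT. Gpr34 was at 8.87 in Cx43-deleted, 13.8 in C57BL6-BALB/c WT and 17.2 in C57BL6 WT, Fcrls at 12.8 in Cx43-deleted, 19.5 in C57BL6-BALB/c WT and 36.4 in C57BL6 WT, and Siglech at 19.4 in Cx43-deleted, 23.5 in C57BL6-BALB/c WT and 25.1 in C57BL6 WT. No marker of either list was at 0.

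Of 9 dendritic cell markers in the tables, 8 passed the minimum, of which 2 lay above both WT libraries and 4 below. For all genes tested, the shares were 33.2% above and 35.6% below. The median was −0.10 over C57BL6-BALB/c WT and −0.40 over C57BL6 WT. Cd209a was at 1.12 CPM in Cx43-deleted, 3.49 in C57BL6-BALB/c WT and 2.64 in C57BL6 WT, Clec10a, also of macrophages, at 28.2 in Cx43-deleted, 19.4 in C57BL6-BALB/c WT and 16.2 in C57BL6 WT, and Itgax at 0.671 in Cx43-deleted, 1.13 in C57BL6-BALB/c WT and 1.34 in C57BL6 WT. The summed levels of the 9 were 152 in Cx43-deleted, 136 in C57BL6-BALB/c WT and 136 in C57BL6 WT. Zbtb46, Flt3 and Clec10a carried most of these sums, Zbtb46 being at 78.7 in Cx43-deleted, 72.2 in C57BL6-BALB/c WT and 81.5 in C57BL6 WT. The 4 markers below both WT libraries, Clec9a, Cd209a, Itgax and Batf3, had low levels and added little to the sums. B cell markers were near the minimum, 2 of 7 passing it, with summed levels of 5.22 in Cx43-deleted, 5.90 in C57BL6-BALB/c WT and 6.18 in C57BL6 WT; Fcer2a was at 0.858 in Cx43-deleted, 1.46 in C57BL6-BALB/c WT and 1.14 in C57BL6 WT, and Cd22 at 1.40 in Cx43-deleted, 1.79 in C57BL6-BALB/c WT and 2.05 in C57BL6 WT. Monocyte markers had 4 of 6 passing and 3 below both, among them Ccr2 at 1.04 in Cx43-deleted, 2.12 in C57BL6-BALB/c WT and 2.40 in C57BL6 WT, Plac8 at 1.27 in Cx43-deleted, 2.17 in C57BL6-BALB/c WT and 7.79 in C57BL6 WT, and Fn1, which vessels also make, at 707 in Cx43-deleted, 848 in C57BL6-BALB/c WT and 1074 in C57BL6 WT.

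For endothelial cells, 8 of 10 markers were below both WT libraries and 1, Slc2a1, was above, where 35.6% and 33.2% of all genes were. The median was −0.17 over C57BL6-BALB/c WT, −1.01 over C57BL6 WT and −0.70 between the WT libraries. Tek was at 467 CPM in Cx43-deleted, 676 in C57BL6-BALB/c WT and 1054 in C57BL6 WT, Kdr at 129 in Cx43-deleted, 185 in C57BL6-BALB/c WT and 309 in C57BL6 WT, and Slc2a1, a glucose transporter, at 2828 in Cx43-deleted, 1653 in C57BL6-BALB/c WT and 2162 in C57BL6 WT. The log2 ratios of Cd40, −0.81 over C57BL6-BALB/c WT and −1.37 over C57BL6 WT, were below those endothelial medians in both comparisons of the Cx43-deleted library. Single markers came close over C57BL6 WT, where Cldn5 and Emcn were both at −1.32, while Slc2a1, the 1 endothelial marker higher there, was at 0.39. The lowest endothelial marker over C57BL6-BALB/c WT was Tek, at −0.53. The microglia marker Fcrls was at −1.47 over C57BL6 WT and −0.59 over C57BL6-BALB/c WT. Of 8 astrocyte markers, 6 lay below both WT libraries, among them Sox9 at 24.5 in Cx43-deleted, 33.8 in C57BL6-BALB/c WT and 42.5 in C57BL6 WT, Slc1a2 at 944 in Cx43-deleted, 1233 in C57BL6-BALB/c WT and 1208 in C57BL6 WT, and Aqp4 at 11.8 in Cx43-deleted, 19.8 in C57BL6-BALB/c WT and 14.2 in C57BL6 WT. The 8 choroid plexus markers had medians of 0.37 over C57BL6-BALB/c WT, −0.81 over C57BL6 WT and −1.15 between the WT libraries. Their summed levels were 4669 CPM in Cx43-deleted, 3530 in C57BL6-BALB/c WT and 8815 in C57BL6 WT. The part of these cell types in the levels of the members was not tested.

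**Figure D4:**
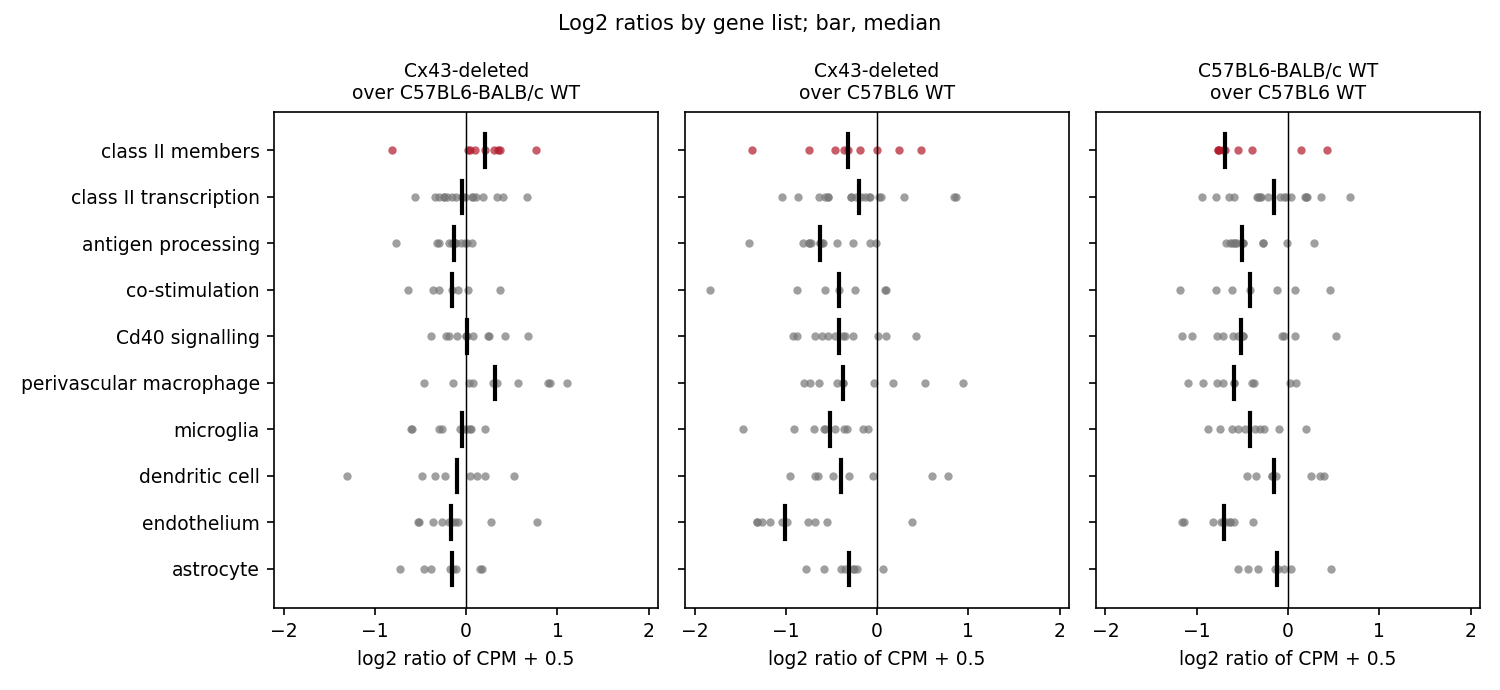
Log2 ratios of CPM with a pseudocount of 0.5 for each gene tested in 10 lists, with the list median as a bar: Cx43-deleted over C57BL6-BALB/c WT on the left, Cx43-deleted over C57BL6 WT in the middle, and C57BL6-BALB/c WT over C57BL6 WT on the right. The members (top row) have medians of 0.21, −0.32 and −0.70, and the perivascular macrophage markers 0.31, −0.37 and −0.59.

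The genes most like a member in pattern were sought among 12361 protein-coding genes with 5 CPM or more in every library, by the root mean square difference of centred log2 levels over the 3 libraries. For Cd74 the nearest were Asnsd1, Chmp1a and Pcca, with differences of 0.0028, 0.0038 and 0.0048, but 1354 genes (11.0%) lay within 0.1, so its pattern was common. For Cd40 the nearest were Serpinh1, a collagen chaperone, Ctsh, and Cd93, a receptor of endothelium and myeloid cells, with differences of 0.030, 0.035 and 0.040, and only 23 genes (0.186%) lay within 0.1. Serpinh1 was at 123 CPM in Cx43-deleted, 213 in C57BL6-BALB/c WT and 302 in C57BL6 WT, and Cd93 at 105 in Cx43-deleted, 183 in C57BL6-BALB/c WT and 287 in C57BL6 WT. Likeness over 3 libraries is a description only.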

How the data were processed

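Per the file headers, each library's table, as deposited by the authors, lists 82813 Ensembl transcripts, each with an unnormalised count of reads. A second deposited column gives the count as a fraction of 1 library total, and count divided by fraction gave the totals. Other deposited columns, transcript length and bases with no read, were used as they stand. The counts sum to 2.55 (Cx43-deleted), 2.53 (C57BL6-BALB/c WT) and 2.45 (C57BL6 WT) times the totals, so a read counts on every transcript it overlaps. The submitters' processing notes name CASAVA 1.8.2, Bowtie and mm10, and the library kit in the labels' protocols does not keep the strand. Coordinates in the tables reach 197054592 on chromosome 1, beyond its last gene in GRCm38 (195323493), so positions and names came from GENCODE M21 by transcript identifier; 69379 of 82813 matched, and 217 on another chromosome were left out.

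CPM values are gene sums of counts over the TMM-scaled library total (factors of 0.976 for Cx43-deleted, 1.00 for C57BL6-BALB/c WT, 1.02 for C57BL6 WT; edgeR 4.0.16, R 4.3.3). Log2 ratios have a pseudocount of 0.5, which understates those of low genes. Called means 2-fold, among the 16594 genes at 1 CPM or more in a library. Intervals used scipy 1.17.1 in Python 3.11.15. Alternatives were pseudocounts of 0.1 and 1, scaling by total or by DESeq2 1.42.0 size factors, the most abundant or longest coding transcript, and a minimum of 5 CPM or none. Steps were tested on simulated counts. In each other list, up to 3 genes furthest outside both WT libraries were named, except 1 that is not reported here. Members and lists were chosen with earlier results of these data known. Promoters are from RefSeq (GRCm38.p6).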

Additional observations from a re-analysis of the deposited data

How the results depend on the processing

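The member medians, the counts at 2-fold and the counts outside both WT libraries kept their values within counting error or 1.5 times under the other pseudocounts, minimum levels, size factors and transcript choice, and without H2-DMb1, an alternative chosen after seeing the data. Under scaling by library total, the members below both WT libraries numbered 2 in place of 1, Ctss joining Cd40. Under DESeq2's size factors, the members above both numbered 3 in place of 2, H2-DMb1 joining H2-DMa and Ciita. Under the settings tried, only Ctss over C57BL6-BALB/c WT and H2-DMb1 over C57BL6 WT changed sign, their log2 ratios running from −0.01 to 0.03 and from −0.06 to 0.02. With a minimum of 5 CPM, 8 members remained, without H2-DMb1. The 27 read folds recomputed with scaling by library total stayed within their counting intervals. The longest coding transcript carried the same reads as the most abundant one in each member, so that choice could not change a fold. No paired analysis was possible because each group had 1 library and the labels give no replicate numbers. Depth limits H2-DMb1 and Cd40 most, with 25 and 94 reads in C57BL6-BALB/c WT, and variation between animals was not measured.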
